A study of Mus musculus with 6 samples.

Results

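Interferon signalling was followed at the RNA level in lung group 2 innate lymphoid cells (ILC2s) from WT and SIRPα KO mice. The members were 42 genes in 3 roles: 4 interferon receptor chains, 6 interferon regulatory factors (IRFs) and 32 interferon-stimulated targets. They were chosen by name from their known role, with earlier results of these data known. Of the 42, 41 were in the table of 17831 genes, Ifi44 was not analysed here, and 37 passed the filter on low counts and were tested. The 4 that did not pass were Ifit1, Ifit3, Oasl2 and Mx1.

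The study asked what loss of SIRPα, an inhibitory receptor for CD47, does to activated ILC2s. WT mice (genotype label CB57BL/6) and SIRPα KO mice (SIRPalphatm1Ynliu/J), aged 6 to 8 weeks, all received recombinant mouse IL-33 intranasally for 3 days. On day 4, CD45+ lineage- CD127+ ST2+ cells were sorted from the lung and cultured with recombinant mouse IL-2 and IL-7, for a time that the study states differently in different places. Antibodies of the lineage gate were directed at T cells (CD3ε, CD4, CD5), NK cells (CD335), B cells (B220) and myeloid cells (CD11b, CD11c, Gr1), so the sort was set to remove these. No interferon is named among the additions in either group. The KO allele is carried by the whole animal, so the SIRPα KO cells also came from a SIRPα-deficient lung. Each library was made from 10 pg of RNA, there were 3 per group, and they held between 13980499 and 19051507 reads on genes.

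The labels also carry sample codes, of which some recur. WT 1 and WT 2 carry code 37, WT 3 code 38, SIRPα KO 1 code 43, and SIRPα KO 2 and 3 code 44. The labels do not say what a code stands for, or whether libraries of a code came from separate mice, so p-values measure the spread between these libraries, which may be technical. Each code holds 1 genotype only, so code and genotype cannot be told apart. Libraries of the same code differed by more than counting noise (chi-square per degree of freedom 28.8 for WT 1 and WT 2, 10.3 for SIRPα KO 2 and 3). Over all genes SIRPα KO 1 was as near to SIRPα KO 2 (7.99) and SIRPα KO 3 (11.5) as these were to each other. Spread was wider in WT, with a biological coefficient of variation of 38.0% against 15.2% in SIRPα KO. WT 3 stood apart from WT 1 and WT 2 (76.5 and 62.9), and values without it are given where it changes the call of a member. All 16 ILC2 markers had reads in every library, with a summed level of 15600 to 16700 CPM (reads per library size after TMM scaling) in WT and 21400 to 21900 in SIRPα KO. Il5 made up most of this sum (8450 to 9710 CPM in WT and 12600 to 13200 in SIRPα KO), and 3 of the markers were called higher (Il5, Il2ra and Ptprc) and 2 lower (Thy1 and Id2). Sirpa reads were 149, 96 and 73 in WT and 48, 85 and 28 in SIRPα KO (log2 fold change -1.12, SE 0.42, adjusted p = 0.115). The groups did not overlap for Sirpa after scaling, but the difference did not pass the test, and which exons the allele lacks is not given in the sources used here.

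Type I interferons act through a receptor of IFNAR1 and IFNAR2, and interferon gamma through IFNGR1 and IFNGR2. Janus kinases bound to these chains phosphorylate STAT transcription factors. With IRF9, these form the ISGF3 complex, which binds interferon-stimulated response elements (ISREs), whereas STAT dimers bind gamma-activated sites (GAS). Type I interferon and interferon gamma are known to restrain ILC2s in the lung.

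RefSeq promoter windows (GRCm38.p6, 250 bases before to 50 after the start) were found for 33 of the 42 members, and they show where these elements lie. The genes with no window were Usp18, Dhx58, Zbp1, Mx1, Ly6e, Rtp4, Parp9, Parp14 and Ifi27. An ISRE core, GAAANNGAAA or its other strand TTTCNNTTTC, was in a window of 15 of the 33 (45.5%), against 3.99% of 27025 genes. Among the roles it was in 14 of 23 targets (60.9%), 1 of 6 IRFs (Irf2) and 0 of 4 receptor genes. The GAS core TTCNNNGAA, which reads the same on both strands, was in 13 of 33 (39.4%) against 9.55% of all genes, including 2 of 4 receptor genes (Ifnar1 and Ifnar2) and 3 of 6 IRFs (Irf1, Irf2 and Irf8). A match overlapped one of the other motif in Bst2. These matches are a description of letters and do not show that a factor binds there.

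Stretches before the start of 5 genes are printed because the values of these genes recur in the results: Ifit1, Ifit3 and Rsad2 had a library-specific pattern, Isg15 is the prototype target, and Igtp had non-overlapping groups. Capitals mark the ISRE cores, and each line reads 5′ to 3′ along the gene's strand.
Ifit1, chr19:34640765-34640833, plus strand: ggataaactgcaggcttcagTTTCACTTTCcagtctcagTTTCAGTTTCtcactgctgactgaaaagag
Ifit3, chr19:34583353-34583436, plus strand: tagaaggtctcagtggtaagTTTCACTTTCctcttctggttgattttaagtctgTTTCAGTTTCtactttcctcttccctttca
Rsad2, chr12:26456543-26456592, minus strand: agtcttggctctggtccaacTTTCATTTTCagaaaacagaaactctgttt
Isg15, chr4:156200855-156200916, minus strand: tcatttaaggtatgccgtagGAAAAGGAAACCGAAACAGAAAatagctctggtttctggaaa
Igtp, chr11:58199502-58199551, plus strand: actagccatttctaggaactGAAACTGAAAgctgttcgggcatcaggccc
Ifit1 and Ifit3 each held 2 separate cores, Isg15 held 3 that overlap, and Rsad2 and Igtp held 1 each.

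Across the 37 tested members, few passed the test between the genotypes. By edgeR's quasi-likelihood test with Benjamini-Hochberg adjustment over 13623 genes, Parp9 was higher in SIRPα KO and Ifi27 and Ifi35 were lower. That is 3 of 37 (8.11%), against 11.7% of all tested genes. At an unadjusted p under 0.05 there were 4 of the 37 members higher and 11 lower. Over all 13623 genes there were 2198 higher and 2157 lower (32.0%). The split of the members was less even, and whether it differs from that of all genes was not tested. The groups did not overlap for 5 members higher and 11 lower (43.2%). Over all genes this share was 42.8%, with 21.6% higher and 21.2% lower. The median log2 fold change was -0.15 over the members and -0.025 over all genes. The SIRPα KO minus WT direction was positive for 15 members and negative for 22. The 3 calls rested on the libraries included. When any SIRPα KO library was left out, edgeR called 0 members and 16 or 17 genes in the whole table. At an unadjusted p under 0.05 there were then 1 to 5 members higher and 6 or 7 lower. Without SIRPα KO 1, 2 and 3 in turn, 2991 of 14242, 2935 of 14146 and 3183 of 14141 genes had such a p. The members tested in those fits numbered 40, 37 and 37. Without WT 3 edgeR called 3 members higher and 5 lower, and 2606 of all 14143 genes tested. Without WT 1 the calls of all 3 were lost (Parp9 0.0599, Ifi27 0.0505 and Ifi35 0.0657), and without WT 2 that of Parp9 was (0.0574). DESeq2 called 3 of the 37 higher and 7 lower, where 25.1% of all genes with an adjusted p were called. The 3 were Ifnar1, Igtp and Parp9, and the 7 were Bst2, Ifi27, Ifi35, Irf8, Ly6e, Xaf1 and Zbp1.

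**Figure D1:**
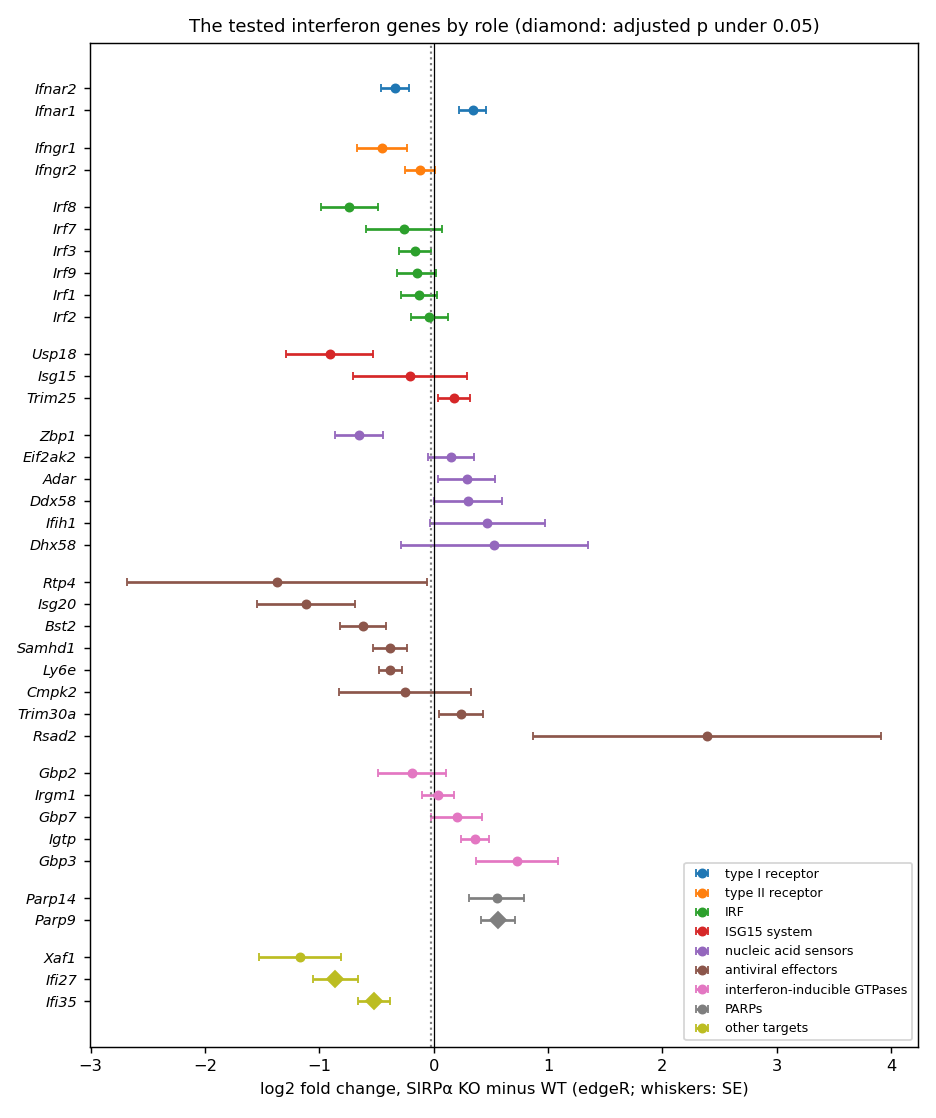
Log2 fold change (SIRPα KO minus WT, x axis) of each of the 37 tested interferon genes, grouped and coloured by role, with whiskers of 1 SE from edgeR and 3 libraries per group. Diamonds mark the 3 genes with an adjusted p under 0.05 (Parp9, Ifi27 and Ifi35), the solid line is 0 and the dotted line is the median of all genes, -0.025.

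The receptor chains were all readily detected, and none of the 4 passed the test (1 higher and 1 lower at an unadjusted p under 0.05). Ifnar1 and Ifnar2, which pair to form the type I receptor and lie near each other on chromosome 16 (mm10, 91485238-91507441 and 91372783-91405589), lay on opposite sides of 0. Ifnar1, the chain that carries TYK2, was at 70.9, 75.4 and 69.8 CPM in WT and 99.1, 83.8 and 90.6 in SIRPα KO. All SIRPα KO values exceeded all WT values (log2 fold change 0.34, SE 0.12, adjusted p = 0.108). Ifnar2, the higher-affinity chain, which carries JAK1, was at 71.5, 70.9 and 73.4 CPM in WT and 60.9, 53.5 and 56.6 in SIRPα KO. Here the SIRPα KO values all lay under the WT values (-0.34, SE 0.12, adjusted p = 0.111).

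Set against each other within a library, the reads of these chains gave a ratio with little spread within each group. The Ifnar1 to Ifnar2 ratio of CPM was 0.992, 1.06 and 0.95 in WT (mean 1.0 ± 0.057, SD, n = 3) and 1.63, 1.57 and 1.6 in SIRPα KO (1.6 ± 0.0305, SD, n = 3). The log2 ratio was 0.67 higher in SIRPα KO, with groups that did not overlap (exact permutation test, two-sided p = 0.1, the smallest that 3 against 3 allows). This outcome was fixed beforehand, because every SIRPα KO value was above every WT value for Ifnar1 and below for Ifnar2. The test therefore adds nothing to those values. This ratio needs no scaling between libraries, and it was formed after the values were seen. The transcripts differ in length (3909 and 3047 bases), and after an adjustment of each library for length and base composition (the length and GC correction) Ifnar1 was at 0.15 (adjusted p = 0.496) and Ifnar2 at -0.41 (adjusted p = 0.0671). Over the 15 alternative settings Ifnar1 stayed between 0.15 and 0.40 and passed with DESeq2 alone (lowest adjusted p 0.0452), and Ifnar2 stayed between -0.44 and -0.28 and passed in none.

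Ifngr1, the ligand-binding chain of the interferon gamma receptor, on chromosome 10 (19591949-19610229), was the member of the receptor group that depended most on a single library. It was at 115, 125 and 68.5 CPM in WT and 74.5, 76.4 and 74.7 in SIRPα KO. WT 3 lay below all SIRPα KO libraries and the other WT libraries lay well above them (-0.45, SE 0.22, adjusted p = 0.192). Without WT 3 the log2 fold change was -0.66 and the adjusted p 0.00509, and without WT 2 it was -0.28. Ifngr2, the signalling chain, was at 66.5, 69.5 and 71.7 CPM in WT and 68.3, 63.5 and 59.2 in SIRPα KO, with overlapping groups (-0.12, SE 0.13, adjusted p = 0.536). The Ifngr1 to Ifngr2 ratio was 1.49 ± 0.465 in WT and 1.18 ± 0.0873 in SIRPα KO (SD, n = 3), which the exact permutation test did not separate (two-sided p = 0.4).

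Per kilobase of transcript, the mean WT level was 48.6 CPM for Ifngr1, 23.6 for Ifnar2, 18.7 for Ifngr2 and 18.4 for Ifnar1. In SIRPα KO the order was Ifngr1 at 35.6, Ifnar1 at 23.3, Ifnar2 at 18.7 and Ifngr2 at 17.2 CPM per kilobase. The type I chains thus changed places between the groups, while Ifngr1 had the highest mean of the 4 in both. In WT the means of Ifngr2 and Ifnar1 differed by less than the SD of either.

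**Figure D2:**
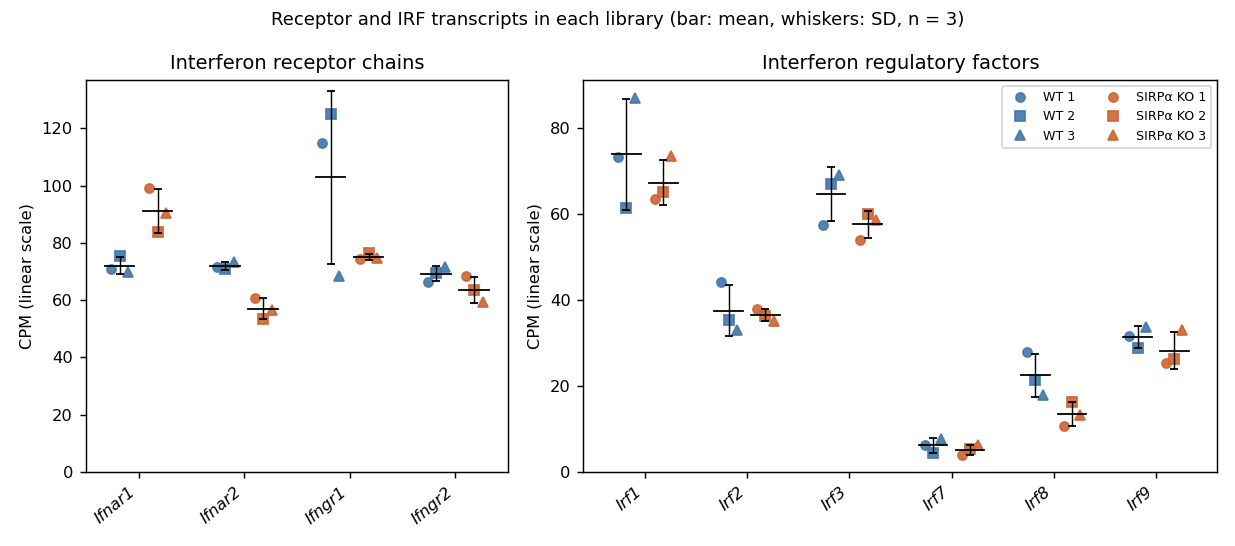
CPM (y axis, linear) of the 4 receptor chains (left) and the 6 IRFs (right) in each of 3 WT and 3 SIRPα KO libraries, with a bar at the mean and whiskers of 1 SD. The groups separate for Ifnar1, Ifnar2 and Irf8, and WT 3 falls away from WT 1 and WT 2 for Ifngr1.

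The IRFs are the transcription factors that drive interferon genes or act downstream of the receptors. All 6 had a negative log2 fold change (median -0.16), and none passed the test (1 lower, Irf8, at an unadjusted p under 0.05 and with DESeq2). The sign was not stable: Irf1 and Irf3 were positive after the length and GC correction, Irf1 was positive without WT 3, and Irf2 was positive without WT 1 and with libraries of a code summed.

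Irf8, a factor of myeloid, dendritic and B cells that also acts in some lymphocytes, had the largest difference of the 6. It was at 27.9, 21.5 and 18 CPM in WT and 10.7, 16.3 and 13.3 in SIRPα KO. All SIRPα KO libraries were below all WT libraries (-0.74, SE 0.25, adjusted p = 0.0862), and without WT 3 the adjusted p was 0.0405. Of the other cell types that use it, the B cell and plasmacytoid dendritic cell sums were both lower in SIRPα KO. Of 8 B cell markers, 7 were in the table, their summed level was 218 to 479 CPM in WT and 23.5 to 86.2 in SIRPα KO, and 5 were called lower. Most of the WT sum was Ighm (105 to 282 CPM in WT, 6.26 to 48.9 in SIRPα KO) and Igkc (73.4 to 177 and 1.09 to 21.7). Ms4a1 (adjusted p = 0.191) and Cd22 (adjusted p = 0.679) were not called. Plasmacytoid dendritic cell markers summed to 34.4 to 48.1 CPM in WT and 30.1 to 30.9 in SIRPα KO, with none called and Siglech and Spib under 1 CPM throughout. Runx2 (18.9 to 28.6 CPM in WT, 17.1 to 20.7 in SIRPα KO) and Tcf4 (8.46 to 10.3 and 7.66 to 11.0) made up most of that sum. Both overlapped between the groups (adjusted p = 0.289 and 0.834). Cox6a2 had separate groups (3.51 to 7.35 and 0.496 to 1.92, adjusted p = 0.0672). Conventional dendritic cell markers overlapped, at 47.1 to 60.1 CPM summed in WT and 47.3 to 55.9 in SIRPα KO (Xcr1 -0.17, adjusted p = 0.576), with Flt3 and Clec10a under 1 CPM. Macrophage and monocyte markers overlapped too, at 45.2 to 128 CPM summed in WT and 80.5 to 124 in SIRPα KO, with Itgam called higher and Fcgr1, C1qa and C1qb under 1 CPM throughout. The sort's lineage gate was set against B cells and myeloid cells. The part of B cells, or of any plasmacytoid dendritic cells, in the Irf8 result was not tested. In bulk RNA fewer cells of a type and less RNA per cell cannot be told apart.

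Irf1, an activator of interferon gamma targets, was at 73.2, 61.4 and 87.1 CPM in WT and 63.5, 65.1 and 73.4 in SIRPα KO (-0.13, adjusted p = 0.595). Irf2, which competes with IRF1 at shared sites, was at 44.3, 35.3 and 33.0 CPM in WT and 38.0, 36.4 and 35.2 in SIRPα KO (-0.039, adjusted p = 0.891). Both sets of libraries overlapped, with the widest spread in WT.

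Irf3, the constitutive factor that responds to nucleic acid sensing, was at 57.4, 67.1 and 69.2 CPM in WT and 54.0, 60.1 and 58.7 in SIRPα KO (-0.16, adjusted p = 0.434). Irf7, the interferon-inducible factor that amplifies the type I response, was low at 6.38, 4.41 and 7.68 CPM in WT and 3.96, 5.25 and 6.26 in SIRPα KO (-0.26, SE 0.33, adjusted p = 0.623). Irf9, the DNA-binding part of ISGF3, was at 31.6, 28.8 and 33.8 CPM in WT and 25.3, 26.3 and 33.1 in SIRPα KO (-0.15, adjusted p = 0.574). The groups overlapped for all 3. Per kilobase, Irf1 and Irf3 had the highest WT means (34.6 and 31.8 CPM per kilobase) and Irf7 the lowest (1.90), and Irf1 and Irf3 differed by less than the SD of either over the WT libraries. Irf1 overlaps Gm17334, Irf3 Bcl2l12 and Irf7 Phrf1 on opposite strands. On the same strand, Irf9 overlaps Rnf31 and Irf8 overlaps Gm20388. The sources used here do not state whether strand was used in counting, so reads in the shared parts cannot be told apart.

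The targets differed widely in level. Per kilobase, mean WT levels of the tested targets ran from 666 CPM for Ly6e to 0.107 for Rsad2. Of the 27 tested, 14 had a positive and 13 a negative log2 fold change (median 0.034), 1 was called higher and 2 lower (11.1%, against 11.7% of all genes). The median was 0.12 without WT 2 and -0.17 after the length and GC correction.

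**Figure D3:**
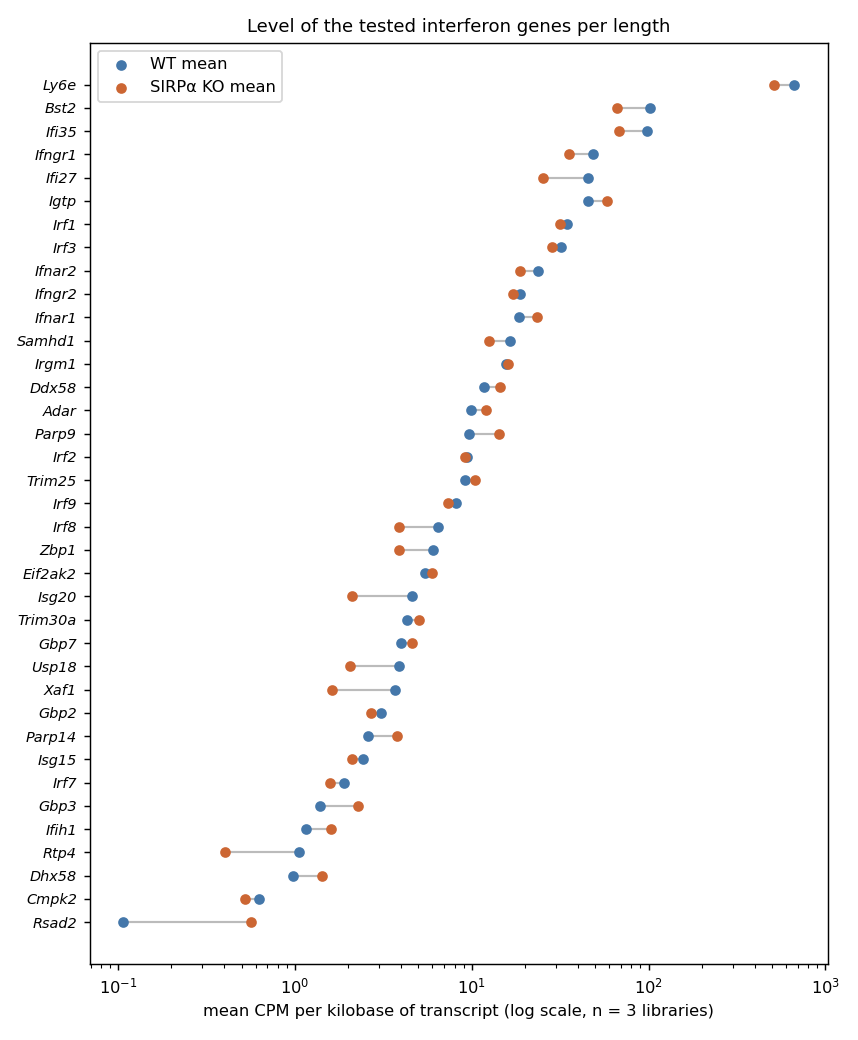
Mean CPM per kilobase of transcript (x axis, log scale) of the 37 tested interferon genes in 3 WT and 3 SIRPα KO libraries, ordered by the WT mean. Ly6e stands above the rest at 666 in WT and 513 in SIRPα KO, and Rsad2 is lowest in WT at 0.107.

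The 3 called targets have different functions. Parp9, of the PARP (ADP-ribosyltransferase) family, works with the ubiquitin ligase DTX3L in the interferon response (chromosome 16, 35938470-35972605). Parp9 was at 37.4, 35.3 and 29.9 CPM in WT and 48.8, 48.9 and 54.0 in SIRPα KO. It was 1.48-fold higher (log2 fold change 0.56, SE 0.15, adjusted p = 0.0497). Its neighbour Dtx3l overlaps it on the other strand, and was at 23.9, 37.6 and 16.2 CPM in WT and 35.0, 35.1 and 36.8 in SIRPα KO (0.46, adjusted p = 0.301). Parp14, of the same enzyme family, was at 0.55 (SE 0.24, adjusted p = 0.153) with overlapping groups, and passed without WT 3 (0.81, adjusted p = 0.0256). After the length and GC correction it was at -0.035.

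Ifi27, a mitochondrial membrane protein (chromosome 12, 103434211-103440239), was at 39.8, 41.7 and 52.1 CPM in WT and 28.4, 25.9 and 19.6 in SIRPα KO. It was lower at a log2 fold change of -0.86 (SE 0.20, adjusted p = 0.0350). Ifi35, a partner of NMI (chromosome 11, 101448407-101458698), was at 124, 120 and 156 CPM in WT and 88.4, 92.5 and 98.7 in SIRPα KO. It was lower at -0.52 (SE 0.14, adjusted p = 0.0497). The groups did not overlap for Parp9, Ifi27 or Ifi35. None of the 3 passed after the length and GC correction, with Parp9 at 0.35 (adjusted p = 0.112), Ifi27 at -0.36 (0.222) and Ifi35 at -0.097 (0.552).

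Fold change ran with transcript length across the whole table. The median was -0.66 in the shortest of 10 equal classes of genes by transcript length (median 631 bases) and 0.43 in the longest (median 7844 bases). The members followed the same order: those with a positive value had a median length of 3909 bases and those with a negative value 2398, and over all tested genes these were 3889 and 2228. After the correction the class medians lay between -0.055 and 0.021, the members' median was -0.22, the receptor chains' -0.35 and the IRFs' -0.28. In that fit 8.84% of all genes were called, 4.11% higher and 4.73% lower, of which the members were Igtp, higher at 0.47 (adjusted p = 0.0278), and Samhd1, lower at -0.60 (adjusted p = 0.0445). Neither had passed before it. The source of the length relation was not tested.

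**Figure D4:**
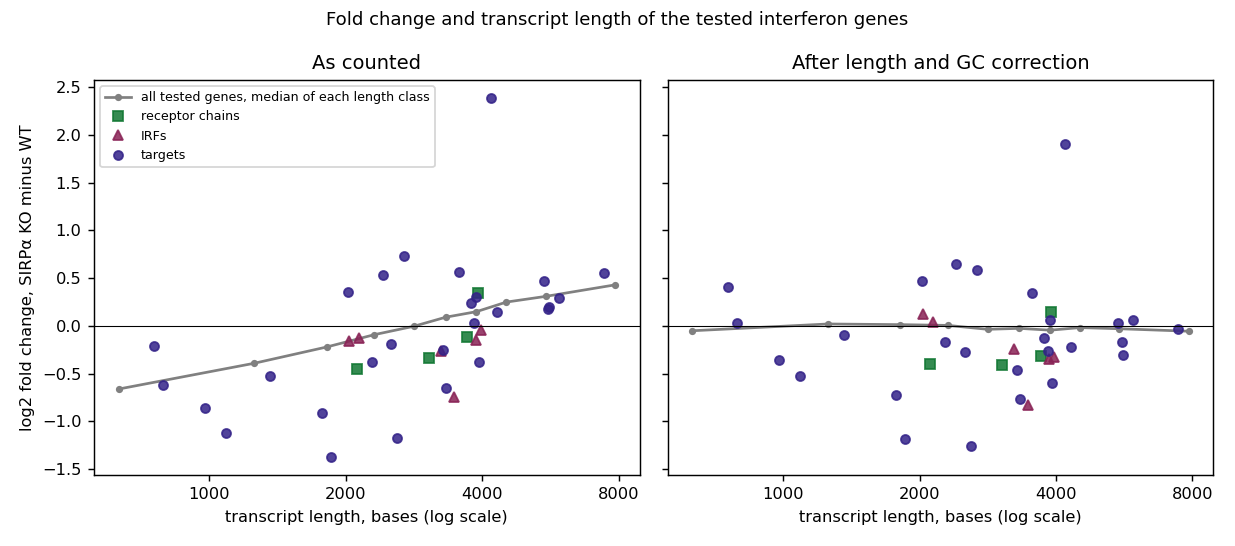
Log2 fold change (SIRPα KO minus WT, y axis) against transcript length (x axis, log scale) of the 37 tested interferon genes by role, as counted (left) and after the length and GC correction (right). The grey line joins the medians of all tested genes by length class, from -0.66 to 0.43 on the left and between -0.055 and 0.021 on the right.

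In the ISG15 system, which attaches and removes a ubiquitin-like protein, none of the 3 genes passed (1 lower, Usp18, at an unadjusted p under 0.05). Usp18, the protease that removes ISG15 and dampens IFNAR2 signalling, was at 6.56, 8.82 and 5.23 CPM in WT and 3.32, 2.47 and 5.15 in SIRPα KO (-0.91, SE 0.38, adjusted p = 0.143). The WT libraries were all above the SIRPα KO ones, the nearest pair by little. Isg15 was low in both groups, at 1.27 to 2.71 CPM in WT and 1.26 to 2.05 in SIRPα KO (-0.21, SE 0.50, and 0.41 after the length and GC correction), and the annotation holds a near-identical copy over 63.8% of its transcript. Trim25, a ligase for ISG15 and activator of RIG-I, was at 0.18 (SE 0.14) with non-overlapping groups, and at -0.17 after that correction.

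The nucleic acid sensors had 5 positive values of 6, or 4 after the length and GC correction, and no call (1 lower, Zbp1, at an unadjusted p under 0.05). Adar, the double-stranded RNA editing enzyme, was at 66.2, 73.0 and 35.4 CPM in WT and 72.9, 73.4 and 66.7 in SIRPα KO (0.29, SE 0.25, adjusted p = 0.464). Its difference lay in WT 3, without which it was 0.036. Ddx58, which encodes RIG-I, had the same shape, at 52.0, 59.4 and 24.5 CPM in WT and 50.4 to 64.0 in SIRPα KO, and was 0.30 with WT 3 and 0.010 without it. Ifih1 was at 2.76, 11.9 and 4.37 CPM in WT and 8.12 to 9.78 in SIRPα KO (0.47, SE 0.50, adjusted p = 0.544). It was called higher without WT 2. Zbp1, a sensor of Z-form nucleic acids, was the exception in sign, with 17.2 to 25.2 CPM in WT and 12.5 to 13.4 in SIRPα KO (-0.65, SE 0.21, adjusted p = 0.0849). Part of Adar (23.2% of the transcript) matches Chrnb2.

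Among the antiviral effectors 8 of 12 were tested, 6 of them with negative values, and none was called (4 lower at an unadjusted p under 0.05). Ly6e, a membrane protein that blocks viral entry, was the most abundant member, at 1390, 1450 and 1730 CPM in WT and 1200, 1140 and 1170 in SIRPα KO. All SIRPα KO libraries were lower (-0.38, SE 0.10, adjusted p = 0.0542), and the adjusted p ranged from 0.0119 to 0.287 over the alternative settings. Ly6e passed without WT 3 (-0.27, adjusted p = 0.0119) and without WT 1 (-0.44, adjusted p = 0.0497). Bst2, the tetherin that holds budding virions, was at 65.7, 71.0 and 107 CPM in WT and 54.1, 48.6 and 55.4 in SIRPα KO (-0.62, SE 0.20, adjusted p = 0.0806). The Bst2 transcript is short (792 bases), and after the correction its value was 0.034.

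Isg20, an exonuclease that degrades viral RNA, was at 3.62, 4.76 and 6.69 CPM in WT and 1.34, 2.57 and 2.98 in SIRPα KO (-1.12, SE 0.43, adjusted p = 0.123). Rtp4, a chaperone-like inhibitor of viral replication, was near the limit of detection, at 1.73, 0 and 4.17 CPM in WT and 0.192, 1.68 and 0.372 in SIRPα KO (-1.37, SE 1.31, adjusted p = 0.499). The Rtp4 value was -0.20 without WT 3 and -2.76 without SIRPα KO 2. Isg20 had separate groups and Rtp4 did not. Xaf1, a pro-apoptotic target, was at 8.28, 6.04 and 14.4 CPM in WT and 4.15, 4.30 and 4.28 in SIRPα KO (-1.17, SE 0.36, adjusted p = 0.0705), and passed without WT 2 (-1.42, adjusted p = 0.0337). Its SIRPα KO libraries lay close together while the WT libraries spread widely. Markers of NK cells and ILC1s also had separate groups (18.1 to 27.3 against 1.92 to 4.04 CPM summed, 8 of 8 in the table, 3 called lower). The T cell sum did too (18.6 to 23.5 against 4.77 to 5.56, 6 of 8), but Cd3g carried it (16.4 to 21.2 against 3.15 to 3.64), Cd3e overlapped, and Cd3d, Cd4 and Cd5 were under 1 CPM in every library. The lineage gate was set against T and NK cells, and the part of such signal in the Xaf1, Isg20 and Zbp1 values was not tested.

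The interferon-inducible GTPases, which attack pathogen vacuoles, had 4 positive values of 5, or 2 after the length and GC correction, which called Igtp. As counted there was no call (1 higher, Igtp, at an unadjusted p under 0.05). Igtp, whose promoter stretch is printed above, was at 87.6, 84.3 and 103 CPM in WT and 116, 119 and 117 in SIRPα KO, with separate groups (0.36, SE 0.12, adjusted p = 0.0943). It passed after the correction, without WT 3 (0.46, adjusted p = 0.0119) and with DESeq2. Irgm1 was at 60.5, 67.1 and 52.2 CPM in WT and 60.2, 60.8 and 63.1 in SIRPα KO (0.034, SE 0.14, adjusted p = 0.889), and was negative with upper quartile scaling, without WT 3 and after the correction. Gbp3 was at 2.88 to 4.63 CPM in WT and 4.84 to 8.55 in SIRPα KO (0.73, SE 0.36, adjusted p = 0.205), while Gbp2 (-0.19) and Gbp7 (0.20, and -0.30 after the correction) overlapped.

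Igtp overlaps Irgm2 on the same strand, and Irgm2, of the other pathway genes, was called higher: 6.21, 9.81 and 4.77 CPM in WT and 12.8, 17.2 and 19.3 in SIRPα KO (1.25, SE 0.32, adjusted p = 0.0439). The Irgm2 call was lost after the correction (1.02, adjusted p = 0.0594) and without WT 1 (adjusted p = 0.0868). How reads in the shared part were assigned is not stated. The Igtp to Irgm2 ratio was 14.8 ± 6.52 in WT and 7.36 ± 1.54 in SIRPα KO (SD, n = 3), with overlapping groups (exact permutation test, two-sided p = 0.2).

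The 4 targets that failed the filter had a pattern of their own. Reads of Ifit1, Ifit3 and Mx1 came from SIRPα KO 2 and 3 alone, the libraries of code 44. Ifit1, which binds viral RNA lacking 2′-O methylation, had 13 and 11 reads there and 0 in the other 4 libraries. Ifit3, its partner, had 15 and 16 and otherwise 0. Mx1, a GTPase that blocks influenza virus, had 19 and 10 and otherwise 0. Oasl2, of the oligoadenylate synthetase-like family, had 5 and 8, with 1 read in WT 2 and 0 in the rest.

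A count of 0 allows up to 3 reads, which is 0.157 to 0.213 CPM in these libraries, while the values in SIRPα KO 2 and 3 reached 0.997 CPM (Mx1). This limit covers counting error only. Rsad2, which encodes viperin and was tested, had 0, 4 and 16 reads in WT and 0, 79 and 47 in SIRPα KO. As CPM this was 0, 0.284 and 1.06 against 0, 4.15 and 2.92, and the group difference of 2.39 had an SE of 1.52 (adjusted p = 0.308). It was 4.09 without WT 3 and 1.71 without SIRPα KO 2. In SIRPα KO 1, Ifit1, Ifit3, Mx1, Oasl2 and Rsad2 all had 0 reads, at a depth within the range of the other libraries (15777379 reads). For these genes SIRPα KO 2 and 3 stood apart from SIRPα KO 1, which the comparison over all genes above does not show.

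By a rule chosen after these values were seen (at least 5 reads in each of a pair of libraries and at most 1 in each other), 52 of 17831 genes (0.292%) were particular to the libraries of code 44. Since the rule was written to describe Ifit1, Ifit3, Mx1 and Oasl2, their being among the 52 is no finding. Of the other pathway genes it took Ifit3b, Ifit1bl1 and Slfn4. For the other 14 pairs of libraries the rule gave 11 to 41 genes, with Iigp1 in WT 1 and SIRPα KO 2 and Trim30b in WT 2 and SIRPα KO 2. Ifit3b had 7 and 17 reads, Ifit1bl1 16 and 13, and Slfn4, of an interferon-inducible family, 28 and 15. Ifit3 and Ifit3b are near-identical over 97.4% of the Ifit3 transcript, so their reads may be split between them. As printed above, Ifit1, Ifit3 and Rsad2 each hold an ISRE core before the start. The Oasl2 window held no ISRE core, and Mx1 had no window. Isg15, with 3 cores, did not have the pattern, at 22, 22 and 41 reads in WT and 23, 24 and 33 in SIRPα KO. Fitted without the filter, the group difference gave adjusted p-values of 0.156 for Ifit1, 0.142 for Ifit3, 0.148 for Mx1 and 0.297 for Oasl2. Epithelial markers summed to 73.2 CPM in each of SIRPα KO 2 and 3 and to 8.37 in SIRPα KO 1, almost all of it Scgb1a1 (56.3, 60.8 and 0.0639 CPM), while Epcam was level (6.51, 5.27 and 5.88). B cell markers summed to 86.2, 82.2 and 23.5 CPM in the same order, and macrophage and monocyte markers to 124, 110 and 80.5. Eosinophil, mast cell and basophil markers summed to 2.52 and 1.49 CPM in SIRPα KO 2 and 3 and to 53.5 in SIRPα KO 1. In WT the epithelial sums were 52.5 to 74.5 and the macrophage and monocyte sums 45.2 to 128, with no Ifit1, Ifit3 or Mx1 reads. The part of such cells was not tested.

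**Figure D5:**
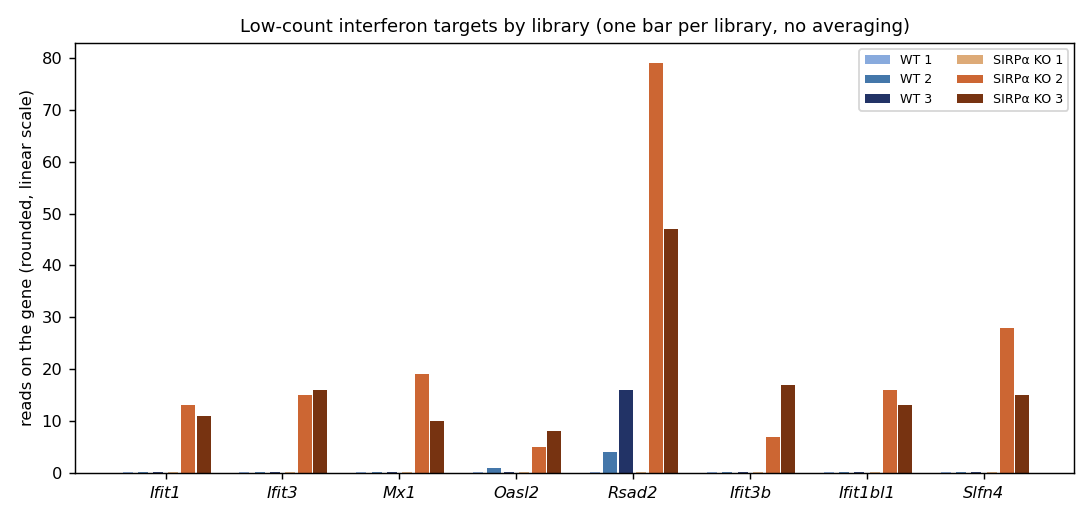
Reads per gene (y axis, linear, rounded) of 8 interferon targets in each library, with 1 bar per library and no averaging. Ifit1, Ifit3, Mx1, Ifit3b, Ifit1bl1 and Slfn4 have bars in SIRPα KO 2 and 3 alone, Oasl2 also has 1 read in WT 2, and Rsad2 has 79 and 47 reads there against 0 to 16 elsewhere.

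Beyond the members, 152 other genes of the pathway were listed, of which 130 were in the table and 113 were tested. Of these, 3 were called higher and 13 lower (14.2%, against 11.7% of all genes, of which 5.94% were higher and 5.81% lower). Their median log2 fold change was -0.13. When any SIRPα KO library was left out, edgeR called 0 of the other pathway genes (6 to 10 higher and 16 to 20 lower at an unadjusted p under 0.05), where it called 16 or 17 genes in the whole table.

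The kinases that the receptors use were abundant. Jak1 was at 543, 553 and 307 CPM in WT and 772, 707 and 655 in SIRPα KO (0.60, SE 0.21, adjusted p = 0.101). Jak2 (0.44, adjusted p = 0.359) and Tyk2 (0.31, adjusted p = 0.290) had overlapping groups. Stat2, a subunit of ISGF3, was at 43.1, 35.3 and 31.6 CPM in WT and 29.2, 32.1 and 32.4 in SIRPα KO, also with overlapping groups (-0.23, adjusted p = 0.380). Jak1 passed without WT 3 (0.38, adjusted p = 0.0172). After the length and GC correction Jak1 was at 0.29 (adjusted p = 0.181), Jak2 at 0.026 (0.965), Tyk2 at 0.24 (0.244) and Stat2 at -0.41 (0.0985).

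Of the 9 negative regulators tested, 3 were called lower (Socs1, Socs3 and Irf2bp2) and 0 higher (2 at an unadjusted p under 0.05), where 5.81% of all genes were lower and 5.94% higher. Socs1, which blocks JAK1 and JAK2 and is itself induced by interferon gamma and by other cytokines, was at 401, 396 and 583 CPM in WT and 274, 278 and 304 in SIRPα KO. It was lower at -0.69 (SE 0.16, adjusted p = 0.0367). Socs3, the related inhibitor of gp130-type receptors, was at 70.7, 80.0 and 91.4 CPM in WT and 51.9, 57.6 and 55.7 in SIRPα KO, lower at -0.55 (SE 0.14, adjusted p = 0.0461). Nmi, the binding partner of IFI35, was lower at -0.75 (adjusted p = 0.03). After the correction Nmi was at -0.56 (adjusted p = 0.0479), Socs1 at -0.53 (0.0842) and Socs3 at -0.32 (0.172), while Irf2bp2 was lower at -0.85 (0.0251) and Ptpn6, a phosphatase, higher at 0.54 (0.0412). Without WT 2 the adjusted p of Socs3 was 0.0634.

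Among upstream factors and further targets, Tbk1, the kinase that activates IRF3, was higher at 0.61 (SE 0.15, adjusted p = 0.0430), with 88.1 to 124 CPM in WT and 154 to 182 in SIRPα KO. The Tbk1 call was lost after the correction (0.42, adjusted p = 0.0605) and without WT 1 (adjusted p = 0.0504). Rbm43, an RNA-binding protein, was higher at 0.62 (SE 0.13, adjusted p = 0.0268). Gbp9, a guanylate-binding protein, was at 3.51, 9.53 and 2.45 CPM in WT and 13.4, 16.9 and 16.9 in SIRPα KO (1.62, SE 0.48, adjusted p = 0.0645). Gbp9 passed without WT 2 (2.40, adjusted p = 0.0133) and with DESeq2.

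On the lower side, Slfn2, which maintains lymphocyte quiescence, was at 192 to 204 CPM in WT and 126 to 131 in SIRPα KO (-0.62, SE 0.10, adjusted p = 0.0154). Trim12a was lower at -1.05 (SE 0.21, adjusted p = 0.0238). Ccl5, a T and NK cell chemokine, was at 7.30 to 14.7 CPM in WT and 2.43 to 3.04 in SIRPα KO (-1.91, SE 0.35, adjusted p = 0.0203). Ly6c2, a surface marker of monocytes and memory T cells, had 24, 17 and 12 reads in WT and 0 in every SIRPα KO library, at least 6.32-fold lower against 3 reads per library (adjusted p = 0.0197). The NK cell markers and Cd3g given above moved with Ccl5 and Ly6c2, and their part was not tested. Of 8 interferon ligands listed, Ifng alone was in the table, with 4, 0 and 7 reads in WT and 0 in SIRPα KO, which was too few to test. The others were not analysed here.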

How the data were processed

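RNA from cultured, sorted lung ILC2s was sequenced on a NextSeq 500 after SMARTer Ultra Low v3 amplification. The authors aligned the reads with STAR to mm10 with GENCODE M21 in Partek and deposited estimated counts per gene. The submitters' processing notes name Partek 10.0, STAR 2.7.8 and DESeq2, and the methods text names other versions. The counter and its use of strand are not given in the sources used here. Between 57.3% and 61.3% of a library's values were whole (tolerance 1e-06), and no gene had a total under 10. Of the gene columns, 252 were checked by name and 17579 hold the same unit.

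Counts were rounded, filtered with filterByExpr (10 reads at median depth, 15 in total), scaled by TMM and fitted with edgeR's quasi-likelihood test on genotype (R 4.3.3, edgeR 4.0.16), with Benjamini-Hochberg adjustment over 13623 genes and a threshold of 0.05. The SE is the log2 fold change divided by the root of F. The deposited table was also fitted with DESeq2 1.42.0. Transcript length and GC content (longest transcript, 13484 of the tested genes) were corrected with a spline of 5 degrees of freedom per library. Near copies were searched with BLAST (95% identity), and motifs in RefSeq windows. The procedure was tested on simulated data with the same spread in every library, unlike the libraries here, where spread was wider in WT. Same-numbered libraries did not deviate together (correlations -0.0422, 0.0518 and 0.00747), so replicate numbers were not treated as pairs.

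The members and the lists were chosen with earlier results of these data known. Values in every library were given for receptors, IRFs, called members, the 6 targets with the highest mean CPM and the 6 with the largest log2 fold change in size. Of the other pathway genes, those named were the kinases, Stat2, SOCS genes and Ifng, and the 4 with the smallest adjusted p in each direction. Dtx3l, Nmi, Irf2bp2, Ptpn6, Iigp1, Trim30b, Ifit3b, Ifit1bl1 and Slfn4 were named after their values were seen. A result for 1 further gene is not reported here.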

Additional observations from a re-analysis of the deposited data

How the results depend on the processing

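Depth limited the lowest targets (a count of 0 allows 0.157 to 0.213 CPM), and the number of called genes depended on which libraries were taken as replicates. Against 1600 genes, DESeq2 called 3084, summing libraries of a label code called 10, the length and GC correction with the replicate block called 362, and leaving out single libraries gave 16 to 2606, with 16 or 17 without any SIRPα KO library and 2606 without WT 3. Upper quartile scaling moved the median of all genes to -0.13.

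Members called higher numbered 3 with DESeq2, 0 with upper quartile scaling, 0 with no filter, 0 with the replicate block, 0 with codes summed, 0 with the correction and the replicate block, and 0 to 3 when a library was left out. Members called lower numbered 7 with DESeq2, 1 with RLE factors, 1 with no filter, 0 with the replicate block, 0 with codes summed, 1 with the correction, 0 with the correction and the replicate block, and 0 to 5 when a library was left out. Where edgeR called 0, members at an unadjusted p under 0.05 numbered 3 higher and 8 lower with the block, 1 and 6 with codes summed, and 1 and 5 with the correction and the block. Upper quartile scaling gave 1 higher and 12 lower, and no filter 7 higher and 11 lower. Without SIRPα KO 1, 2 or 3 there were 5, 2 and 1 higher and 7, 6 and 7 lower. Over all genes such a p was held by 3997 of 13623 with the block and 3359 of 14581 with codes summed. It was held by 3360 of 13623 with the correction and the block, 4460 of 13623 with upper quartile scaling and 4720 of 17831 with no filter. Without SIRPα KO 1, 2 or 3 the counts were 2991 of 14242, 2935 of 14146 and 3183 of 14141.

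The receptor chains' median was -0.33 with upper quartile scaling, -0.35 with the correction and -0.32 with the correction and the block. The IRFs' was -0.28 with the correction, and the targets' -0.17 with it and -0.15 with it and the block. Other pathway genes called higher numbered 9 with DESeq2, 1 with no filter, 1 with the replicate block, 0 with codes summed, 0 with the correction and the block, and 0 to 6 when a library was left out. Those called lower numbered 6 with the replicate block, 0 with codes summed, 2 with the correction and the block, and 0 to 19 when a library was left out. At an unadjusted p under 0.05 these were 9 higher and 19 lower of 115 with codes summed. With the correction and the block they were 10 higher and 28 lower of 113. Over all genes these fits gave 3359 of 14581 and 3360 of 13623.

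Signs turned for Irf1 (0.043 with the correction, 0.048 with the correction and the block, -0.25 to 0.0090 when a library was left out, positive without WT 3), Irf2 (0.020 with codes summed, -0.12 to 0.10 when a library was left out, positive without WT 1), Irf3 (0.13 with the correction, 0.13 with the correction and the block), Bst2 (0.034 and 0.033) and Irgm1 (-0.062 with upper quartile scaling, -0.26 with the correction, -0.26 with the correction and the block, -0.048 to 0.12 when a library was left out, negative without WT 3). The cause was not tested. Of the 37 tested members, 14 turned sign in at least 1 setting: these 5, and Isg15, Trim25, Dhx58, Eif2ak2, Cmpk2, Trim30a, Gbp2, Gbp7 and Parp14. Isg15 was at 0.41 with the correction and 0.18 without WT 3. Sirpa passed the threshold in none of the 15 alternatives (adjusted p 0.0673 to 0.290).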
